A study of Homo sapiens with 72 samples.

Results

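The HOX genes were examined in 3 human B-cell lines by the histone marks at their starts and across the 4 chromosomal clusters they form. All protein-coding genes of the GENCODE 44 annotation named HOXA, HOXB, HOXC or HOXD with a number were taken, which gave 39 of the 20033 protein-coding genes on chromosomes 1 to 22, X and Y. The HOXA cluster on chromosome 7 holds 11 of them, HOXB on chromosome 17 holds 10, and HOXC on chromosome 12 and HOXD on chromosome 2 hold 9 each. Raji is a Burkitt lymphoma line, and NALM6 and REH are lines of B-cell precursor acute lymphoblastic leukemia. Each line was either left untreated or given 1 nM bryostatin, an activator of protein kinase C, overnight by the labels and for a day by the study's account. Cut&Tag, in which a transposase is directed to an antibody-bound histone mark and cuts the DNA around it, was run for H3K4me2, H3K4me3 and H3K27me3 with 3 replicate libraries in each of the 18 groups. The 54 libraries of these marks were used, and the other 18 samples of the series, IgG controls, were not used here. Each line is a single culture lineage, so a difference between lines is a difference between 3 lines and not between disease classes. The sources used here do not say whether replicates came from separate cultures, and p-values measure the spread between these libraries, which may be technical.

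HOX proteins are homeodomain transcription factors that set positional identity along the body axis, and within a cluster the genes stand in the order of the regions they pattern, from the anterior genes of low number to the posterior genes of high number. In blood they are active in stem and progenitor cells and are silenced as cells mature, and HOXA9 with its cofactor MEIS1 is a known driver of leukemias with KMT2A rearrangements. Trithorax group proteins such as KMT2A place methyl groups on histone H3 lysine 4 (H3K4) and keep HOX genes open, whereas Polycomb repressive complex 2, with EZH2 as its enzyme, places H3K27me3 over silent HOX clusters.

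A gene was counted as marked in a library where at least 1 base of a peak lay within 1 kb of an annotated start. The promoters of the 39 genes were described by sequence features that the choice of genes did not use. Over the 300 bases from 250 before to 50 after the main annotated start, HOX promoters had a median GC content of 55.3% and a median of 18 CpG dinucleotides, with ranges of 42.7% to 76.3% and 4 to 44, against medians of 63.7% and 23 for all protein-coding genes. The observed to expected CpG ratio, which corrects for base composition, had a median of 0.813 in HOX promoters and 0.775 in all. The box CCAAT, searched on both strands, stood in 29 of 39 HOX promoters (74.4%) and in 36.1% of all promoters. TATAAA stood in 7 (17.9%) against 9.71% of all, and TGATTNAT, the site of PBX and HOX heterodimers, in 3 (7.69%) against 1.90%. These matches are letters in a window and show no binding.

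The promoters of HOXA13 and HOXA4 are shown because both were under H3K4me2 and H3K4me3 peaks in every REH library and in no library of the other lines. They were read from hg38 on the minus strand, with each CpG in capitals.
HOXA13, chr7:27200042-27200341 (minus strand): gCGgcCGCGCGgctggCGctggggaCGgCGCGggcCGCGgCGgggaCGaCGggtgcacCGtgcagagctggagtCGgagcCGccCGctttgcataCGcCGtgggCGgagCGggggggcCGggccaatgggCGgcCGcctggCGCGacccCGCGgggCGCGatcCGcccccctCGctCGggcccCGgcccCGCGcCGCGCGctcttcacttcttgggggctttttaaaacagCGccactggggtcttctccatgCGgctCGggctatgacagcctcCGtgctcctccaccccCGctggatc
HOXA4, chr7:27130708-27131007 (minus strand): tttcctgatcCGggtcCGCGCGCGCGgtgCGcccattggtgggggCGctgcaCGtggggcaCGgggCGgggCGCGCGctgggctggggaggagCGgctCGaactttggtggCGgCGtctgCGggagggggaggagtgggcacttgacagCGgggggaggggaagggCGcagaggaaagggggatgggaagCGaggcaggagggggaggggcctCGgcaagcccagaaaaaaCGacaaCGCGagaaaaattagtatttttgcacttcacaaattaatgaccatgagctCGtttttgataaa

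The HOXA13 stretch held 44 CpGs, the highest count among the 39, and the HOXA4 stretch held 27. The HOXA11 stretch is shown beside them because it was under H3K27me3 in all 6 REH libraries, between the H3K4-marked HOXA9 and HOXA13.
HOXA11, chr7:27185183-27185482 (minus strand): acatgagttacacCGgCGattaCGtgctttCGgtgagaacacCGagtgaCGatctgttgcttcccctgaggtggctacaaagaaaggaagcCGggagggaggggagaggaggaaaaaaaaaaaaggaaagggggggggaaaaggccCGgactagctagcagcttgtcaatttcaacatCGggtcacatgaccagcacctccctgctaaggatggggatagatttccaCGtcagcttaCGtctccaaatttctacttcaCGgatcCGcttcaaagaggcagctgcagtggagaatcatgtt

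Elsewhere, HOXB4 was under H3K4me3 at this stretch in all 6 Raji libraries and in none of REH, HOXC4 was under both H3K4 marks in all Raji and REH libraries, and HOXC8 was under H3K27me3 and H3K4me2 in all 6 REH libraries of each mark. Of the 39 promoter stretches, 9 lay under H3K4me2 or H3K4me3 in all 3 untreated libraries of a line, and they held a median of 22 CpGs (9 to 44). The other 30 held a median of 16.5 (4 to 36), so the ranges overlapped widely. The 9 stretches under H3K27me3 in all 3 untreated REH libraries held a median of 17 CpGs (12 to 23). Peaks over this stretch were counted for the HOX genes only, so neither count of 9 can be set against a share of all genes.

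The clusters also encode microRNAs, and those of MIR196B, MIR196A2 and MIR10A are shown from RefSeq (GRCh38.p14) with the seed, bases 2 to 8, in capitals. MIR196B lies in HOXA beside HOXA9 (chr7:27169528-27169549, minus strand), MIR196A2 in HOXC (chr12:53991762-53991783, plus strand) and MIR10A in HOXB beside HOXB4 (chr17:48579904-48579926, minus strand).
miR-196b-5p: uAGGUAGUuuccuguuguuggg
miR-196a-5p: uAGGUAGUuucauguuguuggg
miR-10a-5p: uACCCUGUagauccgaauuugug

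miR-196a and miR-196b share their seed. MIR196B had H3K4me2 and H3K4me3 within 1 kb of its start in all 6 REH libraries of each mark. It had neither in Raji or NALM6, the same pattern as at HOXA13 and HOXA4. MIR10A had an H3K4me3 peak within 1 kb of its start in all 6 Raji libraries and in none of the other lines. The joined region of the 6 Raji libraries there, chr17:48576561-48579640, ended short of MIR10A itself. MIR196A2 carried no H3K4me3 peak in any library and H3K27me3 in all 6 libraries of REH and of Raji. In NALM6 it carried H3K27me3 in 2 of 3 untreated and 2 of 3 treated libraries.

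Libraries differed in depth and in how much was called. The number of mapped reads, recovered from the size of the smallest step in the signal of 48 libraries, ran from 5.12 to 47.9 M with a median of 18.8 M. In the 6 libraries of NALM6 replicate 1 few peaks lay on the 10 bp bins of the others, for a reason not stated, and their depth is unknown. The H3K27me3 libraries of that replicate held 1444 and 590 peaks, and they are included in the NALM6 H3K27me3 values. Raji untreated H3K27me3 replicate 1 held 819 peaks, and replicate 2 stood apart in another way. Its peaks lay at 57.0% of all gene starts and at 88.7% of the genes with H3K4me3 in all untreated Raji libraries, where the other H3K27me3 libraries had peaks at 0.404% to 17.1% of the H3K4me3 genes of their own line. The treated Raji H3K27me3 libraries held 3424, 2778 and 101702 peaks, so pooled Raji H3K27me3 values join libraries that differ widely. The lines were checked by marker genes. Of 7 B-lineage genes, all 7 carried H3K4me2 in all untreated Raji and REH libraries and 5 did so in NALM6. Of 3 mature B-cell genes, all 3 carried H3K4me3 in all untreated Raji libraries and 1, CIITA, did so in NALM6 and REH, where the other two, MS4A1 and CR2, had none. Of 5 precursor B genes, 4 carried H3K4me3 in all untreated NALM6 libraries and 4 in REH, and 1, RAG1, in Raji, and no T-cell or erythroid gene carried an H3K4 peak in any untreated library. Among 5 myeloid genes CSF1R carried H3K4me2 in 3 of 3 untreated REH libraries, MPO in 2 of 3 of REH and CD33 in 2 of 3 of Raji. All 4 housekeeping genes carried H3K4me3 in every untreated library.

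The first question was which HOX genes carry active marks in which line. In untreated REH, 12, 13 and 11 of the 39 genes had H3K4me2 at a start in the 3 libraries, in untreated Raji 8, 5 and 10, and in untreated NALM6 0, 0 and 0. For H3K4me3 the counts were 10, 7 and 7 in REH, 6, 7 and 7 in Raji and 0, 0 and 0 in NALM6. The 3 lines did not overlap for H3K4me2, and for H3K4me3 REH and Raji shared the value 7. Over all genes, untreated NALM6 libraries had H3K4me2 at 27.5% to 47.1% and H3K4me3 at 32.4% to 53.8%. For H3K4me2 the shares were 44.5% to 55.4% in Raji and 55.0% to 61.1% in REH. For H3K4me3 they were 52.1% to 54.2% in Raji and 42.3% to 58.2% in REH. The part of these shares in the HOX counts was not tested. The differences in the number of marked starts were 12 for H3K4me2 and 8 for H3K4me3 between REH and NALM6, and 7.67 and 6.67 between Raji and NALM6. Each had p = 0.1 in the exact two-sided permutation test (3 libraries against 3), the smallest value the design allows, and an adjusted p of 0.18 over the 9 line pairs and marks. REH exceeded Raji by 4.33 starts for H3K4me2 (exact p = 0.1, adjusted 0.18) and by 1.33 for H3K4me3 (exact p = 0.6, adjusted 0.771). With all 12 libraries of a pair, permuted within treatment, the REH and Raji excesses over NALM6 were 11.3 and 8.17 for H3K4me2 and 7.17 and 6.5 for H3K4me3, each with an exact p of 0.005, the smallest possible. That test takes the treated and untreated libraries of a replicate number as independent, although their signals deviated together in 6 of the 9 lines and marks. Exchanging whole replicate sets would leave 3 against 3, where no p can go below 0.1, so every p from 12 libraries here rests on that assumption.

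**Figure D1:**
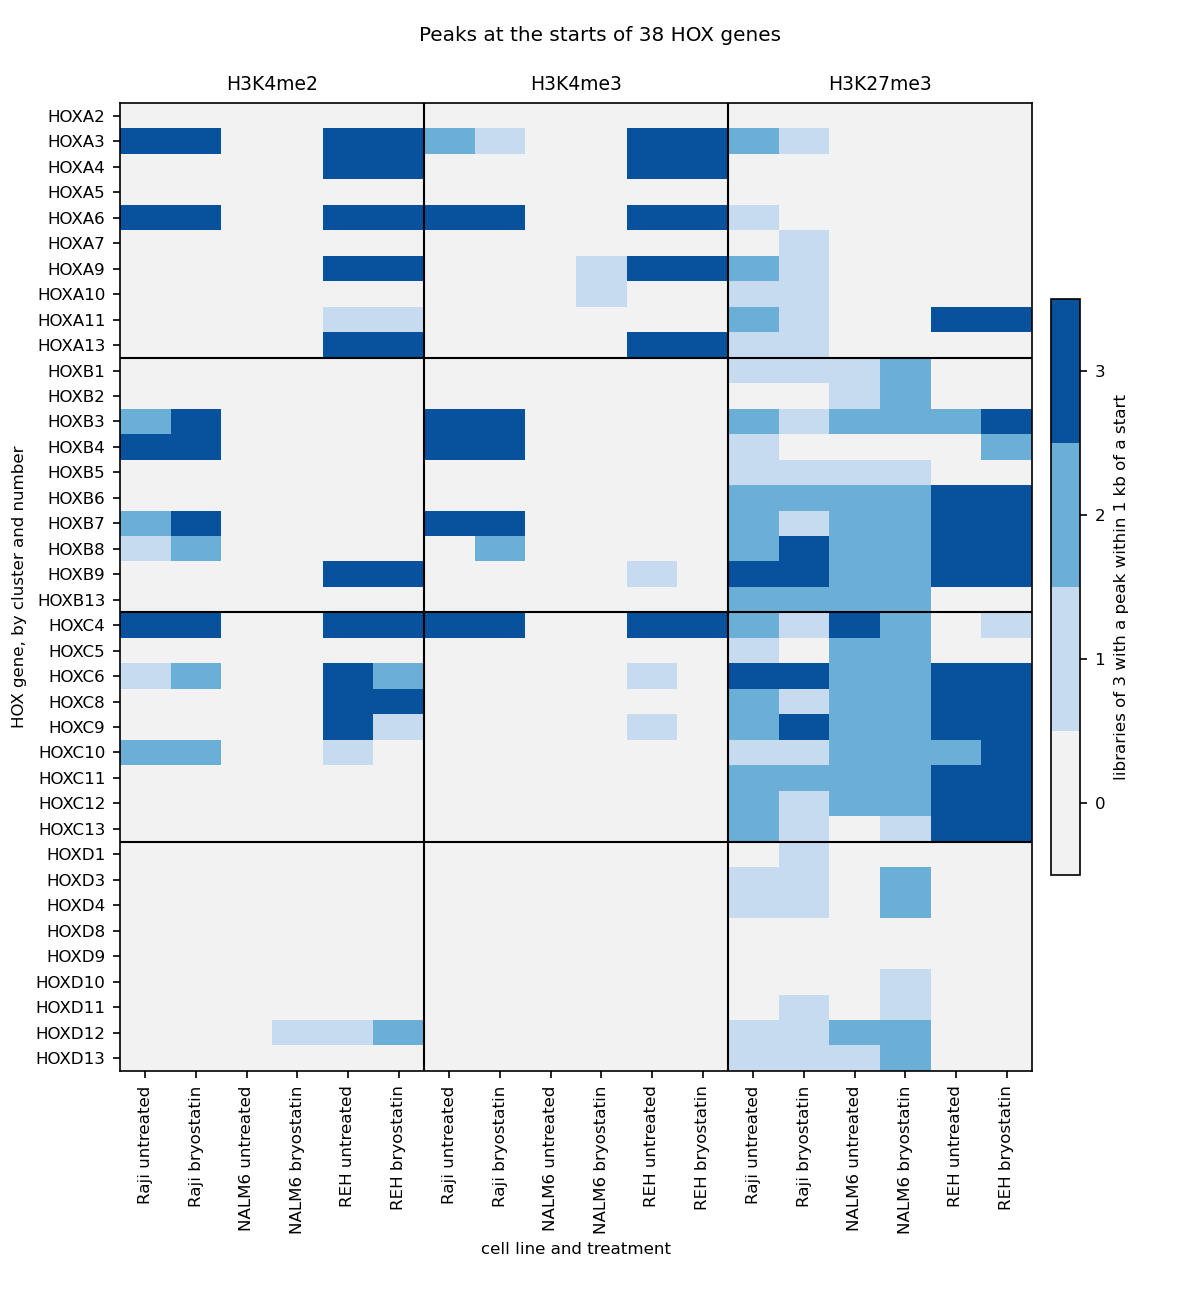
Heat map of 38 HOX genes (rows, ordered by cluster and number) against line and treatment (columns), in a panel for each mark, with darker blue for more of the 3 libraries with a peak within 1 kb of a start. The NALM6 columns are empty for H3K4me2 and H3K4me3 apart from HOXD12, HOXA9 and HOXA10 in 1 treated library each, the REH and Raji columns are filled for H3K4me2 at HOXA3, HOXA6 and HOXC4, and H3K27me3 fills HOXB6 to HOXB9 and HOXC6 to HOXC13 in REH.

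Over all genes, 44.4% had H3K4me2 in all 3 untreated Raji libraries and 54.2% in all 3 of REH, against 5 and 11 of the 39 HOX genes. For H3K4me3 the shares were 51.9% in Raji and 42.2% in REH, against 6 and 7 HOX genes. In both lines the HOX share was below that of all genes. In NALM6, 46.7% of all genes had no H3K4me2 in any of 6 libraries and 45.8% had no H3K4me3, whereas 38 and 37 of the 39 HOX genes had none. The exceptions were HOXD12 with H3K4me2 in bryostatin replicate 2, and HOXA9 and HOXA10 with H3K4me3 in bryostatin replicate 1. The genes with H3K4me2 in all 6 REH and in none of 6 NALM6 libraries numbered 9 of 39 and included HOXA3, HOXA4, HOXA6, HOXA9, HOXA13, HOXB9, HOXC4 and HOXC8, where 3.98% of all genes did the same. In Raji 5 genes did so (2.69% of all genes), among them HOXA3, HOXA6, HOXB4 and HOXC4. For H3K4me3 there were 6 such genes in REH (1.46% of all genes) and 6 in Raji (2.13%).

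REH and Raji marked partly different genes. H3K4me2 was present in all 6 REH and no Raji libraries at HOXA4, HOXA9, HOXA13, HOXB9 and HOXC8, 5 genes where the share of all genes was 4.98%, and the reverse held for HOXB4, 1 gene where the share was 1.22%. For H3K4me3 the REH genes were HOXA4, HOXA9 and HOXA13 (2.41% of all genes) and the Raji genes HOXB3, HOXB4 and HOXB7 (1.67%). HOXA6 and HOXC4 carried both marks in all Raji and REH libraries. HOXA3 carried H3K4me2 in all libraries of both lines and H3K4me3 in all of REH and in 3 of 6 of Raji. In Raji the HOXA6 start marked in all libraries was not the main one but another (chr7:27150603). The main HOXA6 promoter stretch was under no H3K4 peak in untreated Raji. The main HOXA3 promoter stretch was under no H3K4 peak in any library, and the block at HOXA6 reached within 1 kb of that start. No member carried the same mark in all 3 untreated libraries of all 3 lines. The remaining members with H3K4me2 in at least 2 of 3 untreated libraries of a line were HOXC6 and HOXC9 in REH (3 of 3) and HOXB3, HOXB7 and HOXC10 in Raji (2 of 3). HOXB8 had H3K4me3 in 2 of 3 Raji libraries after bryostatin and in none before. HOXA11 carried H3K4me2 in 1 of 3 untreated REH libraries. HOXA2, HOXA5, HOXD8 and HOXD9 had no peak of any mark at a start in any of the 54 libraries.

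HOXA4, HOXA9 and HOXA13 carried both H3K4 marks in REH and in no untreated library of Raji or NALM6. HOXA9, a transcription factor of hematopoietic progenitors, had a total H3K4me2 signal of 1.59, 1.71 and 1.74 times the library median of marked gene starts in the 3 untreated REH libraries, and an H3K4me3 signal of 1.06, 1.25 and 1.41 times that median. The HOXA9 peaks were thus above the median of marked genes in each untreated REH library. HOXA13, known from limb and urogenital patterning, had 1.77, 1.85 and 1.97 times the median for H3K4me2 and 0.555, 0.757 and 0.758 times for H3K4me3. HOXA4 had 1.50, 1.69 and 1.72 times for H3K4me2 and 1.11, 1.44 and 1.47 times for H3K4me3. The HOXA9 block ran from chr7:27166081-27170760 for H3K4me2 in at least 2 of the 3 untreated libraries, 4680 bp that begin upstream of the main HOXA9 promoter and include MIR196B and 3 further annotated HOXA9 starts. The main HOXA9 promoter stretch itself, at chr7:27165488-27165787, was under no peak in any library. The HOXA13 block ran from chr7:27198181-27202060 (3880 bp) and also marked HOTTIP, a long noncoding RNA gene at the posterior end of HOXA, with both H3K4 marks in all 6 REH libraries. HOXA10, HOXA7, HOXA5 and HOXA2 had no H3K4 peak in REH or Raji, so the marked genes did not form a continuous stretch.

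**Figure D2:**
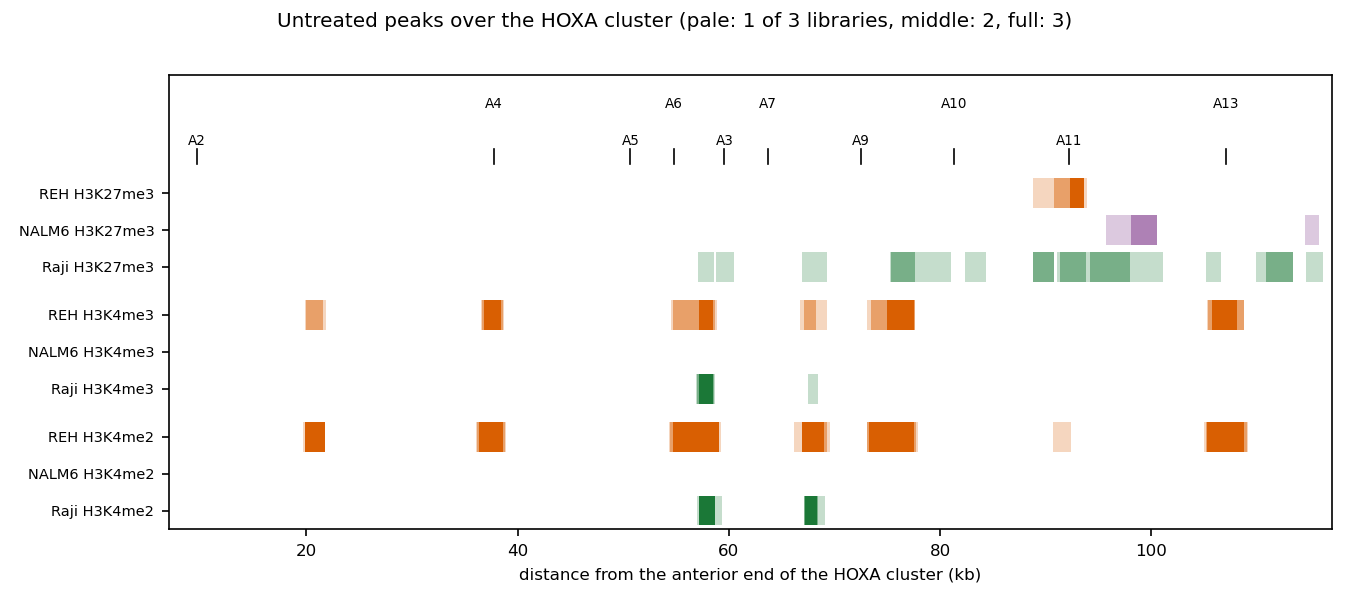
Map of the HOXA cluster with the distance in kb from the anterior end of the cluster on the horizontal axis, gene starts marked at the top and a row for each of the 3 lines and 3 marks in untreated cells, where a darker bar means that more of the 3 libraries had a peak. REH shows H3K4 blocks at HOXA4, HOXA6, HOXA9 and HOXA13 and at a further HOXA3 start (chr7:27113845). Raji shows one at HOXA6, both lines show a further H3K4me2 block between the HOXA7 and HOXA9 starts, and NALM6 shows none.

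In Raji the marked HOXB genes were the central ones. HOXB4, a factor of hematopoietic stem cells, had an H3K4me3 signal of 0.857, 0.882 and 0.886 times the median of marked gene starts in untreated Raji and an H3K4me2 signal of 0.505, 0.687 and 0.928 times. HOXB3 lay within the same H3K4me3 block at chr17:48576661-48579420 (2760 bp) through a start of its own. The MIR10A start lay outside this block but within 1 kb of it, so these 2 genes and MIR10A are not separate observations. HOXB7 had a weaker H3K4me3 signal of 0.294, 0.304 and 0.349 times the median under a block of 2540 bp at chr17:48609531-48612070. None of the 3 genes had an H3K4 peak in REH or NALM6. In REH the H3K4 marks in HOXB were at HOXB9, with H3K4me2 at 1.06, 1.22 and 1.25 times the median, and at 3 blocks with no HOX start within 1 kb, at chr17:48584971-48586290, chr17:48645291-48648430 and chr17:48676451-48678990. The second of these carried H3K4me3 as well (chr17:48645801-48648230).

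HOXC4 was marked at 2 separate places in both lines. An H3K4me2 block covered the main start at chr12:54052551-54055230 in REH and at chr12:54052561-54054630 in Raji, and a further block covered an upstream start at chr12:54017101-54018960 in REH and at chr12:54017291-54018950 in Raji. HOXC4 is known to be active in lymphocytes. Its H3K4me2 signal, summed over the peaks at all its starts, was 2.53, 2.68 and 3.16 times the median in REH. It was 2.62, 2.91 and 3.45 times in Raji, so the lines overlapped. Taken as single regions, the main start had 0.656 to 0.759 times the median region in untreated REH and 0.500 to 0.707 times in Raji. The upstream start had 1.80 to 1.96 times in REH and 2.11 to 2.54 times in Raji. HOXD carried almost no H3K4 mark. Its H3K4me2 peaks in REH formed a block at chr2:176096351-176098580 (2230 bp in at least 2 of 3 untreated libraries), and the only start within 1 kb of a peak was that of HOXD12, in 1 of 3 untreated and 2 of 3 treated REH libraries.

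**Figure D3:**
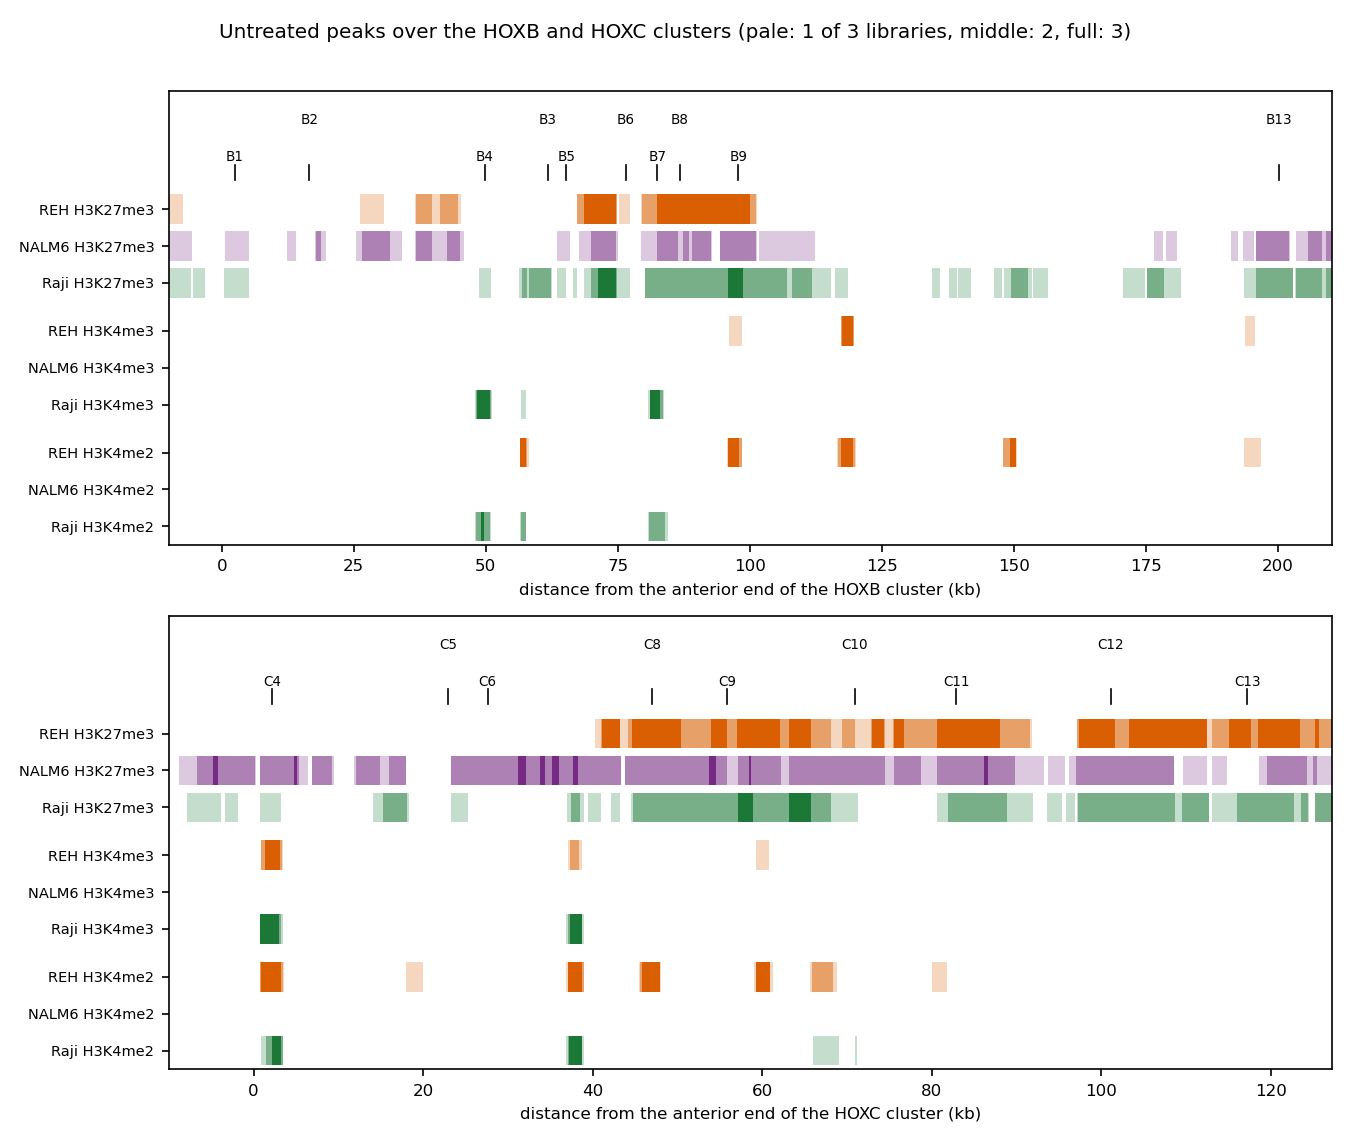
Maps of the HOXB and HOXC clusters with the distance in kb from the anterior end of each cluster, where the genes of low number stand, gene starts marked at the top and a row for each line and mark in untreated cells, where a darker bar means more of the 3 libraries. H3K27me3 covers HOXB7 to HOXB9 and most of HOXC in REH, and the H3K4 bars of Raji stand at HOXB4, HOXB7 and HOXC4.

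The share of each cluster under peaks followed the starts. In HOXA, H3K4me2 covered 23.8%, 20.4% and 18.7% of the bases in untreated REH, 4.71%, 4.87% and 7.27% in Raji and none in NALM6. H3K4me3 covered 18.6%, 14.1% and 11.2% in REH and 4.38%, 4.44% and 4.24% in Raji. The lines did not overlap for either mark. The means were 21.0% ± 2.61 (SD, n = 3) in REH and 5.62% ± 1.44 in Raji for H3K4me2, and 14.6% ± 3.74 and 4.35% ± 0.101 for H3K4me3. REH exceeded Raji by 15.4 percentage points for H3K4me2 and by 10.3 for H3K4me3, each with p = 0.1 in the exact permutation test, and in all 12 libraries by 14.4 and 9.70 points with an exact p of 0.005 (adjusted 0.0113 over the 36 cluster, mark and line-pair combinations). HOXB went the other way for H3K4me3, with 3.38%, 1.23% and 0.979% in REH and 2.75%, 2.97% and 2.76% in Raji. The untreated lines overlapped (exact p = 0.4), and over all 12 libraries REH was lower by a difference of -1.25 points (exact p = 0.02, adjusted 0.0424). For HOXC the H3K4me2 difference over 12 libraries was 4.09 points (exact p = 0.035, adjusted 0.07) and the H3K4me3 difference was -0.67 points (exact p = 0.22, adjusted 0.33). In HOXD H3K4me2 covered 2.26%, 2.78% and 2.23% in REH against 1.01%, 0% and 0% in Raji, a difference over 12 libraries of 1.75 points (exact p = 0.005, adjusted 0.0113).

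**Figure D4:**
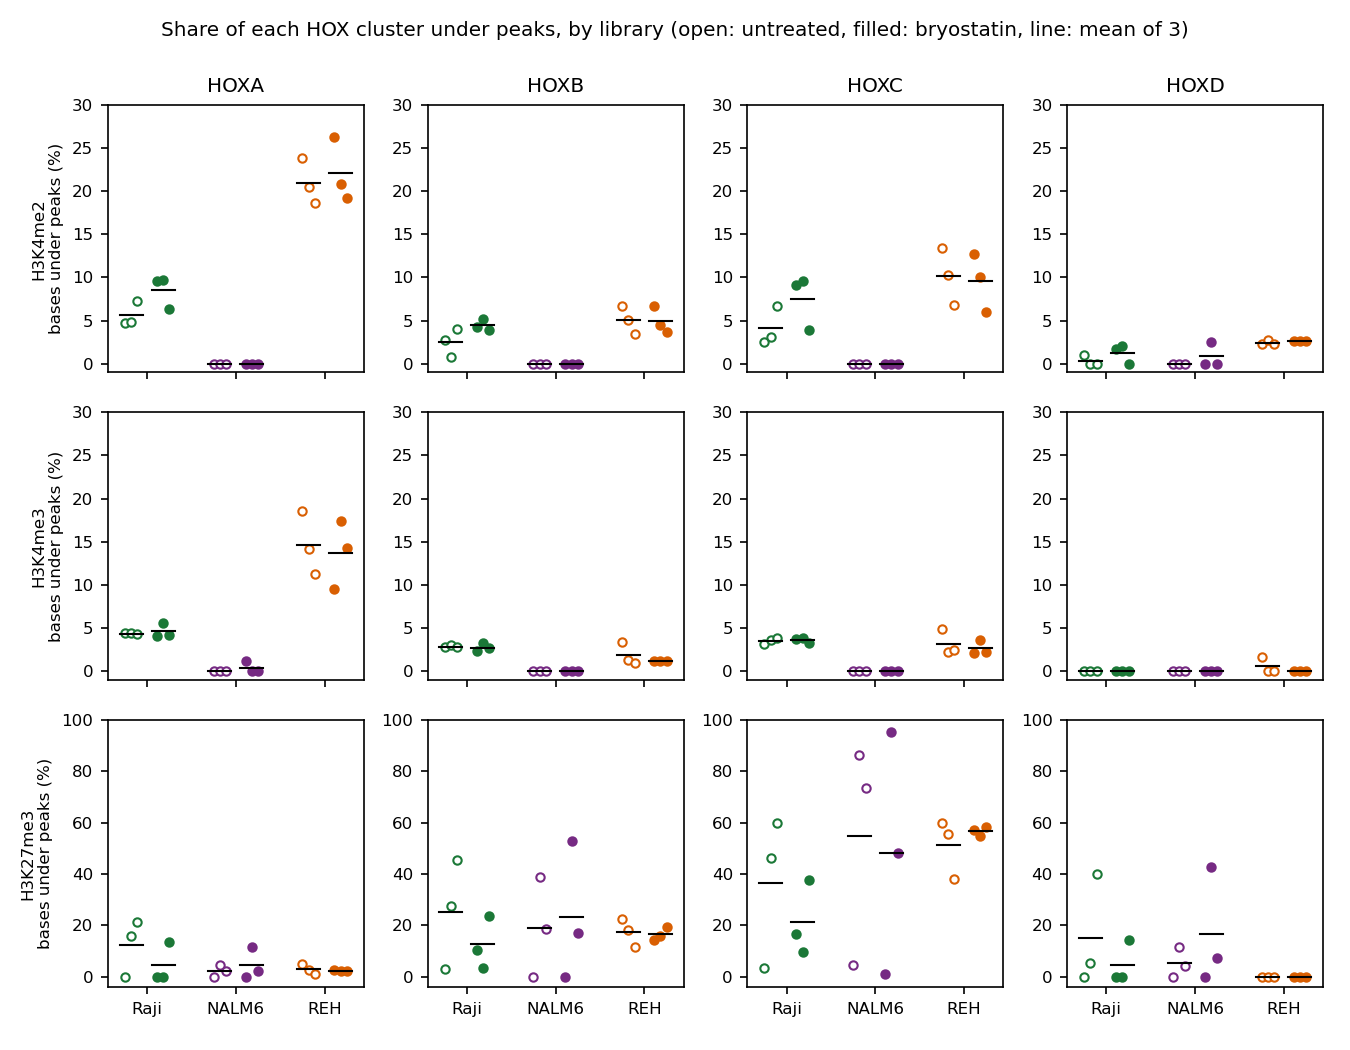
Percent of the bases of each HOX cluster under peaks, a panel for each cluster and mark, with an open point for each untreated library, a filled point for each treated library and a line for the mean of 3, by cell line. HOXA under H3K4me2 lies between 18.7% and 26.3% in REH, between 4.71% and 9.75% in Raji and at 0% in NALM6, and HOXD under H3K27me3 is at 0% in all 6 REH libraries.

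Taking the 4 clusters as a whole, H3K4me2 covered 8.97% ± 1.91 (SD, n = 3) of the bases in untreated REH and 3.09% ± 1.28 in Raji, and H3K4me3 covered 4.52% ± 1.75 and 2.77% ± 0.110. REH libraries covered the clusters 6.01 to 6.19 times as densely with H3K4me2 as the whole genome, and Raji libraries 3.03 to 3.17 times, so the line difference was also present after division by each library's own coverage. The differences between REH and Raji were 5.88 points for H3K4me2 and 1.76 for H3K4me3, each with an exact permutation p of 0.1 and an adjusted p of 0.15.

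Where a start was called in all libraries of both lines, the strength of its signal was compared with limma, over all gene starts called in all 6 untreated libraries and centred on each library's median. Of all starts tested 39.1% were called for H3K4me2, 47.2% for H3K4me3 and 67.7% for H3K27me3, shares against which each HOX call is to be read. HOXA3 had 1.91, 1.88 and 1.63 times the median H3K4me2 signal in Raji and 2.95, 3.25 and 3.42 times in REH, with no overlap, a log2 difference of 0.83 (SE 0.12, limma adjusted p = 0.000689). HOXA6 differed by 0.65 (SE 0.12, limma adjusted p = 0.00291), and it shares its peak with HOXA3, so the 2 results are not independent. In REH the HOXA3 total also took in a peak at a further HOXA3 start (chr7:27113845). That start was marked in 3 of 3 untreated REH and 0 of 3 untreated Raji libraries. The mean called stretch at HOXA3 was 6.64 kb in REH and 1.85 kb in Raji. The called stretch at HOXA6 was 4.66 ± 0.325 kb in REH and 1.85 ± 0.483 kb in Raji. By mean signal per called base the direction turned, to -0.61 at HOXA3 and -0.28 at HOXA6, and by maximum signal neither start was called, so both calls rest on the total signal, which grows with the length called. HOXC4 differed by -0.07 (SE 0.12, limma adjusted p = 0.674). For H3K4me3, HOXA6 was higher in REH by 1.51 (SE 0.20, limma adjusted p = 0.000416), with 0.259, 0.485 and 0.377 times the median in Raji and 1.06, 1.03 and 0.997 times in REH. By mean signal per called base this start was not called (0.43, limma adjusted p = 0.344). HOXC4 differed by -0.43 (SE 0.18, limma adjusted p = 0.0830). No HOX start was called in all libraries of NALM6 and another line for any mark, so no such comparison with NALM6 exists.

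The next question was where the repressive mark lay. In untreated REH, 13, 12 and 12 of the 39 genes had H3K27me3 at a start. Raji had 2, 19 and 26 and NALM6 had 1, 19 and 15, so in both of these lines the spread between libraries exceeded any difference between lines. Over all genes the shares were 18.7%, 12.7% and 10.7% in REH, 1.39%, 57.0% and 27.4% in Raji and 2.06%, 15.1% and 9.74% in NALM6. In Raji replicate 2 the HOX share, 48.7%, was below that of all genes. REH exceeded NALM6 by 0.667 starts (exact permutation p = 1) and the difference of REH from Raji was -3.33 (exact permutation p = 0.7). In REH 11 genes had the mark in all 3 untreated libraries, 28.2% of the HOX genes where the share of all genes was 10%. They were HOXA11, HOXB6, HOXB7, HOXB8, HOXB9, HOXC6, HOXC8, HOXC9, HOXC11, HOXC12 and HOXC13, and each kept it in all 3 treated libraries. In NALM6 15 genes had the mark in at least 2 of 3 untreated libraries (9.64% of all genes), namely HOXB3, HOXB6 to HOXB9, HOXB13, HOXC4 to HOXC6, HOXC8 to HOXC12 and HOXD12. In Raji HOXB9 and HOXC6 had it in all 6 libraries. The members with H3K27me3 in at least 2 untreated libraries of Raji or NALM6 and in none of REH were HOXA3, HOXA9, HOXB13 and HOXC4 in Raji and HOXB13, HOXC4, HOXC5 and HOXD12 in NALM6, and those of Raji rest on replicates 2 and 3. Members with it in at least 2 untreated REH libraries and none of NALM6 were HOXA11 and HOXC13.

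H3K27me3 formed long blocks over several genes. In REH a block at chr17:48608091-48629640 (21550 bp) covered HOXB7, HOXB8 and HOXB9, and a block at chr12:53987931-54011860 (23930 bp) covered HOXC6, HOXC8 and HOXC9, so the members under a block are not separate observations. The HOXB9 signal was 9.61, 13 and 17.3 times the library median of H3K27me3-marked starts in untreated REH, at or above the 94.9th percentile of such starts. In the limma comparison of REH with Raji HOXB9 was higher in REH by 1.22 (SE 0.32, limma adjusted p = 0.00595), and without Raji untreated replicate 1, the library with 819 peaks, the difference was -0.07 (limma adjusted p = 0.890), and with no centring on the library median it was 1.31 (limma adjusted p = 0.0778). HOXC6 differed by 0.49 (SE 0.39, limma adjusted p = 0.292). HOXA11 was weaker, at 0.235, 0.239 and 0.576 times the median. By cluster, HOXC was the most covered, with 59.8%, 55.5% and 38.0% of its bases in untreated REH, 4.48%, 86.3% and 73.5% in NALM6 and 3.58%, 46.0% and 59.8% in Raji. HOXB had 22.3%, 18% and 11.7% in REH. HOXA had 4.80%, 2.65% and 1.16% in REH, and HOXD had no H3K27me3 in any REH library, against 0%, 5.46% and 39.9% in untreated Raji and 0%, 11.8% and 4.15% in NALM6. No pair of lines differed in H3K27me3 in any cluster at an adjusted p under 0.05 over all 12 libraries, the smallest being 0.0947 for HOXC between REH and Raji (exact permutation p = 0.05, a difference of 25.0 points). In REH HOXD thus had H3K4me2 at the block beside HOXD12 and no H3K27me3. Of the 39 genes, 17 had no mark at a start in any of the 18 REH libraries, where 24.8% of all genes had none.

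HOXC and HOXB in REH held both kinds of mark. HOXB9, HOXC6, HOXC8 and HOXC9 had H3K4me2 and H3K27me3 each in at least 2 of 3 untreated REH libraries, 4 genes where 4.94% of all genes did. HOXC9 and HOXC6 have neighbouring starts (chr12:53994895 and chr12:53994944) and are not separate observations there. The HOXC9 H3K4me2 signal was low, at 0.349 to 0.406 times the median in untreated REH, percentiles 1.61 to 7.87 of marked starts. After bryostatin H3K4me2 was present in 1 of 3 REH libraries at HOXC9 and in 2 of 3 at HOXC6. HOXC6 also had H3K4me2 at a further start (chr12:53990624) in 2 of 3 of these libraries. The main promoter stretches of HOXC6 and HOXC9 were under no H3K4me2 peak in REH, and that of HOXC6 under no H3K27me3 peak. Of the 11200 bp under H3K4me2 in at least 2 untreated REH libraries in HOXC, 57.3% were also under H3K27me3, and of the 9700 bp in HOXB 27.8% were. Of the 22031 bp in HOXA none were, although HOXA11 carried H3K27me3. H3K4me3 bases in REH lay outside H3K27me3 in all 4 clusters. At HOXC8 the H3K4me2 signal was 0.573, 0.713 and 0.754 times the median and the H3K27me3 signal 4.19, 6.55 and 10.2 times. At HOXB9 the H3K4me2 block of 2700 bp lay within the H3K27me3 block of 21550 bp. These libraries come from populations of cells, and marks on the same molecule and marks on different cells cannot be told apart. In Raji 47.9% of the H3K4me3 bases in HOXB and 28.9% in HOXC were under H3K27me3 in untreated cells and 0% in treated cells. The untreated Raji value rests on replicate 2, whose H3K27me3 peaks lie at most H3K4me3-marked genes, and the treated value on libraries of which replicates 1 and 2 held 3424 and 2778 H3K27me3 peaks. H3K27me3 in at least 2 of 3 libraries covered 25.5% of HOXB before and 9.49% after treatment. The part of these libraries in the overlap was not tested.

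Bryostatin was the treatment of the study, and the question was whether it moved these marks on HOX genes. Overlapping peaks were joined into regions over the 6 libraries that share a line and a mark, and total signal was compared with limma over all regions called in all 6. No HOX region was called in any of 7 comparisons. They were 6 regions of Raji H3K4me2 (0% of all regions called), 6 of Raji H3K4me3 (0.155%), 3 of Raji H3K27me3 (0%), 1 of NALM6 H3K27me3 (0%), 13 of REH H3K4me2 (1.45%), 7 of REH H3K4me3 (1.67%) and 5 of REH H3K27me3 (0%). At an unadjusted p under 0.05 there were 1, 1, 0, 0, 2, 3 and 0 HOX regions in the same order, where 6.72%, 5.65%, 3.62%, 0.775%, 9.88%, 10.5% and 2.59% of all regions passed. NALM6 had no HOX region in all 6 libraries for H3K4me2 or H3K4me3, so it was not testable there.

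The H3K4me3 regions of REH with the largest differences were at HOXA6, HOXA13 and HOXA4, and none passed the test. The H3K4me3 region at HOXA6 and HOXA3 (chr7:27147531-27151990) had 1.16, 1.10 and 1.06 times the median signal of the regions tested in untreated libraries. It had 0.870, 1.04 and 0.826 times in treated libraries, a log2 difference of -0.29 (SE 0.09, limma adjusted p = 0.188). The H3K4me3 region at HOXA13 (chr7:27198271-27201780) had 0.616, 0.582 and 0.697 times before and 0.533, 0.536 and 0.510 times after, a difference of -0.26 (SE 0.09, limma adjusted p = 0.285). The H3K4me2 region at HOXA13 (chr7:27197541-27202230) differed by -0.26 (SE 0.09, limma adjusted p = 0.291), and the H3K4me3 region at HOXA4 by -0.17 (SE 0.07, limma adjusted p = 0.403). At HOXA9 the differences were -0.14 (SE 0.11) for H3K4me2 and -0.04 (SE 0.07) for H3K4me3, with limma adjusted p of 0.739 and 0.895. Without REH untreated replicate 3 the HOXA6 and HOXA3 region was called, at -0.31 (limma adjusted p = 0.0493). The H3K4me2 region at chr17:48676441-48679100, with no HOX start, differed by 0.29 (SE 0.13, limma adjusted p = 0.495), and the H3K4me2 region at HOXC8 by -0.20 (SE 0.12, limma adjusted p = 0.645). The largest REH H3K27me3 difference was -0.32 over HOXB7 to HOXB9 (SE 0.37, limma adjusted p = 1.00), followed by -0.28 at HOXA11 (SE 0.27) and -0.24 at HOXB6 (SE 0.30).

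In Raji the largest differences included HOXC4 and HOXB4, and no region passed the test. The H3K4me2 region at the main HOXC4 start (chr12:54052471-54056970) had 0.500, 0.707 and 0.564 times the median in untreated libraries. It had 0.818, 0.820 and 0.779 times in treated libraries, a difference of 0.46 (SE 0.18, limma adjusted p = 0.718). The region at HOXB3 and HOXB4 differed by 0.40 (SE 0.19, limma adjusted p = 0.718), and the upstream HOXC4 region by -0.24 (SE 0.14, limma adjusted p = 0.729). For H3K4me3 the upstream HOXC4 region differed by -0.22 (SE 0.24) and the HOXB3 and HOXB4 region by -0.15 (SE 0.10). For Raji H3K27me3 the differences were -0.38 (SE 0.44) over HOXB3 and HOXB6, 0.02 (SE 0.26) over HOXC6 to HOXC10 and 0.01 (SE 0.34) over HOXB7 to HOXB9. In H3K4me2 every treated Raji library was deeper (15.6 to 18.8 M reads) than every untreated one (6.70 to 13.9 M reads), and the part of depth in these values was not tested. NALM6 H3K27me3 over HOXC (chr12:53940271-54032890) differed by -0.07 (SE 0.47, limma adjusted p = 0.999). The interaction term of limma asked whether the change differed between REH and Raji at the 9 HOX starts testable in both lines. There were 4 for H3K4me2, 3 for H3K4me3 and 2 for H3K27me3, and none was called (adjusted p from 0.697 to 0.999). At an unadjusted p under 0.05 there were 0. Over all starts tested, 5 of 7788 were called for H3K4me2, 0 of 7583 for H3K4me3 and 0 of 134 for H3K27me3. Calls were thus rare among all genes.

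**Figure D5:**
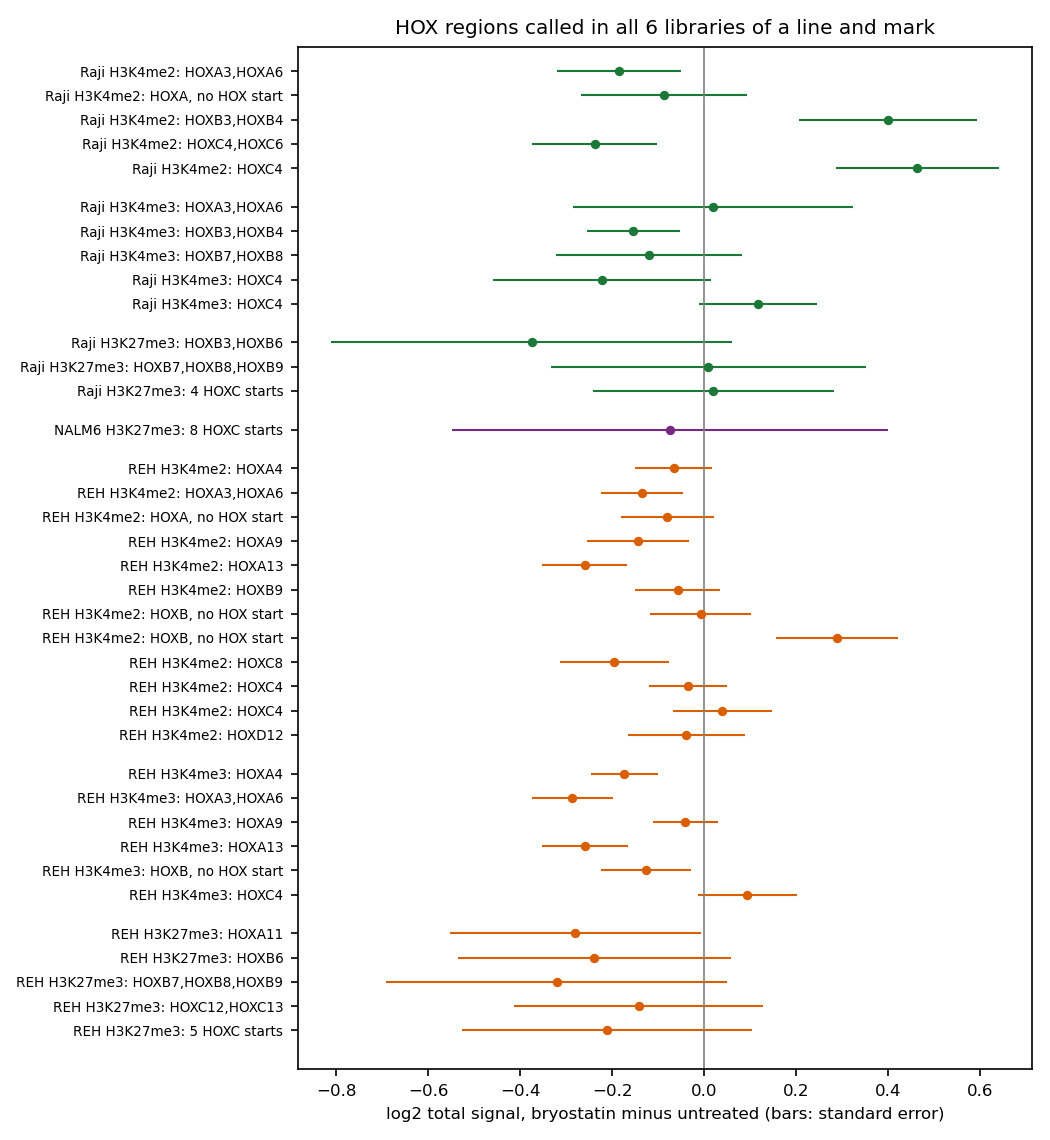
Log2 difference between bryostatin-treated and untreated libraries for the HOX regions called in all 6 libraries, by line and mark, with a point for the limma estimate and a bar for its standard error. The points lie between -0.38 and 0.46, and none passed an adjusted p of 0.05.

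No HOX gene gained a peak at a start in 3 of 3 treated against 0 of 3 untreated libraries, or lost it in the reverse sense, for H3K4me2 or H3K4me3. Over all genes the gained and lost shares were 0.0399% and 0% for Raji H3K4me2, 0.389% and 0% for NALM6 H3K4me2, 0.0399% and 0.00998% for REH H3K4me2, and 0% and 0.00499% for Raji H3K4me3. They were 0% and 0% for H3K4me3 in NALM6 and in REH. The share of cluster bases under peaks differed by 2.28 points for Raji H3K4me2 (exact permutation p = 0.2) and by -11.8 points for Raji H3K27me3 (exact permutation p = 0.5), and by -0.68 to 2.73 points in the other 7 line and mark pairs (exact permutation p from 0.7 to 1, all 9 adjusted to 1). The Raji H3K27me3 libraries covered 1.98%, 25.1% and 42.6% of the cluster bases before and 7.79%, 3.47% and 22.9% after treatment, and the difference was -22.4 points without untreated replicate 1 and -2.12 without untreated replicate 3.

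The other genes of the HOX pathway were taken by lists. Among 9 TALE cofactors, the homeodomain partners of HOX proteins, PBX3 and PKNOX1 had H3K4me2 and H3K4me3 in all untreated libraries of all 3 lines, and PBX2 did in Raji and REH and in 2 of 3 in NALM6. MEIS1, the partner of HOXA9 in leukemia, had no H3K4 peak in any line, so REH carried H3K4 marks at HOXA9 and none at MEIS1. MEIS2 had H3K4me3 in all untreated Raji and NALM6 libraries and in none of REH, where it had H3K27me3 in 2 of 3. All 6 Trithorax side regulators, KMT2A, KMT2B, MEN1, DOT1L, ASH2L and WDR5, had both H3K4 marks in all untreated Raji and REH libraries, and in NALM6 all 6 had them in at least 2 of 3. Of 11 Polycomb side regulators, 10 had H3K4me3 in all untreated REH libraries, all 11 in Raji and 8 in NALM6. EZH2 and SUZ12 had H3K4me3 in all untreated Raji and REH libraries and in 3 and 2 of 3 of NALM6. Untreated NALM6 had H3K4 marks at the starts of genes of both enzyme systems and at none of its HOX genes. The amount and activity of these enzymes were not tested. None of the 6 CDX and ParaHox genes, homeobox genes that include the HOX activators CDX2 and CDX4, had an H3K4 peak in any untreated library.

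Of 18 RNA genes inside the clusters, HOXA-AS3 had both H3K4 marks in all untreated Raji and REH libraries. HOTTIP, MIR196B and HOXA-AS2 carried H3K4me2 in all untreated REH and no other untreated libraries. HOTAIR, in HOXC, had H3K27me3 in all untreated REH and NALM6 libraries. Of 16 neighbours of the clusters, SKAP2 beside HOXA had both H3K4 marks in all Raji and REH libraries and in none of NALM6, and CBX1 beside HOXB followed it. CBX5, HNRNPA1 and LNPK had H3K4 peaks in all 3 lines. The nearest H3K4me2 or H3K4me3 peak left of the HOXA genes was 889 to 891 kb away in untreated NALM6 and 227.5 to 228 kb away in REH and Raji. The gap in NALM6 therefore reached beyond the HOXA genes and past SKAP2. SNX10, another neighbour of HOXA, had both H3K4 marks in all Raji libraries and in none of NALM6 or REH.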

How the data were processed

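Cut&Tag libraries of 3 histone marks were compared between untreated and bryostatin-treated Raji, NALM6 and REH cells, and between the lines. The authors aligned the reads, made coverage in bins of 10 bp scaled for bin length and library size (RPKM), and called peaks on each library with SEACR. The submitters' processing notes name bcl2fastq, Trim Galore, Bowtie2, SEACR and DESeq2 with the build hg38, and their versions are not given in the sources used here. Each deposited file lists peaks with a total and a maximum signal, the coverage summed over the peak and its highest bin. For 48 libraries the peaks lay on bins of 10 bp and the signal was a whole multiple of a smallest step (tolerance 0.02 of a step). That step, taken as what 1 read is worth, gave the number of mapped reads. In the 6 NALM6 replicate 1 libraries the signal also moved in whole steps, but only 0.678% to 1.32% of peaks lay on such bins. The sources do not state how these libraries were binned or scaled, so no number of reads was taken from them. Only called peaks are listed, so a start with no peak has no value, and a deeper library can call more.

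Genes and starts were taken from GENCODE 44 on hg38. A start was marked where at least 1 bp of a peak lay within 1 kb. Total signal was compared on the log2 scale, centred on the median feature of each library, with limma 3.58.1 (eBayes with trend, R 4.3.3) over all starts or merged regions called in all 6 libraries, with no pseudocount, and p-values were adjusted by Benjamini-Hochberg over all of them at a threshold of 0.05. Counts of starts and percentages of bases were compared by two-sided exact permutation tests over libraries (python 3.11.15, numpy 2.4.6, pandas 2.3.3, statsmodels 0.14.6, and matplotlib 3.10.9 for plots), which with 3 libraries against 3 cannot go below 0.1. Some of the fits were tested on simulated data with 200 features changed by 2 on the log2 scale. These were the H3K4me2 and H3K4me3 fits of treatment and of line pairs, and the REH H3K27me3 treatment fit. Each recovered 100% of the changed features. Recovery of smaller differences, such as those of the HOX regions after bryostatin, was not tested. The other H3K27me3 fits were not tested in this way. Same-numbered libraries deviated together, each pair with a correlation over 0.1, in 6 of the 9 treatment fits.

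Genes named beyond the full account of the members were those marked in at least 2 of 3 untreated libraries of 1 line and in none of another, those marked in all 3 lines, those past the adjusted p (at most 10 a fit), those with H3K27me3 and an H3K4 mark together, and the 3 largest differences of each fit. The lists of cofactors, regulators, neighbouring genes, RNA genes and cell type markers, and the members themselves, were chosen with earlier results of these data known. Alternatives were another signal measure, no centring, a wider filter (called in at least 3 of 6, log2 of the multiple of the median plus 1), no trend, a 2 kb window, 10 kb added to each cluster, equal numbers of peaks, the upper part of the peaks, all 12 libraries of a pair of lines, NALM6 without its first replicates, each library left out, and the replicate number as a block. Some items, among them the values of 1 member and several promoter sequences, are not reported here, and that member is left out of the plots.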

Additional observations from a re-analysis of the deposited data

How the results depend on the processing

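Peak lists hold no values below the calling threshold, 3 libraries a group limit each exact test to a p of 0.1, and the H3K27me3 libraries of Raji and NALM6 differ widely in their numbers of peaks, so differences between lines in H3K27me3 depend on which libraries enter. With centring left out, the median of all features shifted by 0.28 (H3K4me2) and 0.18 (H3K4me3) between REH and Raji, by 0.21, 0.25 and -0.39 for H3K4me2, H3K4me3 and H3K27me3 after bryostatin in Raji, and by -0.89 for H3K27me3 in NALM6. The cause of each change given here was not tested unless the setting itself shows it. Of the alternative values of the main results 356 kept their direction and side of the threshold, 28 turned, 9 counts moved and 10 passed a threshold that the main value did not.

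With all 12 libraries of a pair of lines, which lowers the smallest possible p, differences passed the threshold that could not with 6. These p-values treat same-numbered treated and untreated libraries as independent, and by whole replicate sets none could go below 0.1. For marked starts these were 11.3 (H3K4me2) and 7.17 (H3K4me3) between REH and NALM6 and 8.17 and 6.5 between Raji and NALM6. For bases under peaks over the 4 clusters they were 4.78 and 1.41 points between REH and Raji, 8.94 and 4.15 between REH and NALM6, and 4.16 and 2.74 between Raji and NALM6.

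HOX starts called between REH and Raji numbered 2 for H3K4me2, 0 by maximum signal, 1 by mean signal per called base, 11 with starts called in at least 3 of 6 libraries, and 2 to 3 with a library left out. For H3K4me3 they numbered 2, 1 by mean signal, 8 with the wider filter and 2 to 3 with a library left out. The counts of 11 and 8 are no result, because that filter lets in starts called in 1 line only, whose difference it fixes. For H3K27me3 they numbered 1, 0 with no centring, and 0 to 2 with a library left out (0 without Raji untreated replicate 1 and 2 without REH untreated replicate 3). No HOX region was called after bryostatin in the main comparison, and 0 to 1 were called in REH H3K4me3 with a library left out.

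The direction of the treatment difference in cluster bases turned in 5 pairs. It was -0.0963 for Raji H3K4me3 with the upper part of the peaks (-0.193 to 0.131 with a library left out), -0.0759 for REH H3K4me2 with the upper part (-1.02 to 1.05), and with a library left out it ran from -11.4 to 14.5 for NALM6 H3K27me3, from -1.33 to 0.319 for REH H3K4me3 and from -1.90 to 2.94 for REH H3K27me3.

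For H3K27me3 every line difference turned. In marked starts, REH against Raji was 2.67 with equal numbers of peaks and -10.2 to 1.83 with a library left out. REH against NALM6 was -0.167 with 12 libraries, -4.67 without the first NALM6 replicates and -4.67 to 4.33 with a library left out. Raji against NALM6 was -1.33 without the first NALM6 replicates and -1.33 to 10.8 with a library left out. In bases, REH against Raji was 4.29 with equal numbers of peaks, 1.80 with 12 libraries and -15.1 to 5.18 with a library left out. REH against NALM6 was 3.74 with equal numbers of peaks and -12.4 to 5.77 with a library left out. Raji against NALM6 was -5.12 with 12 libraries, -7.87 without the first NALM6 replicates and -7.87 to 12.8 with a library left out.

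Among single starts between REH and Raji, the log2 difference turned to -0.61 at HOXA3 and -0.28 at HOXA6 (H3K4me2, mean signal), to 0.22 at HOXC4 (H3K4me2, no centring), ran from -0.074 to 1.42 at HOXB9 (H3K27me3, a library left out), and at HOXC6 (H3K27me3) was -0.19 by maximum, -0.033 by mean, -0.20 with the wider filter and -0.92 to 1.04 with a library left out. Among regions after bryostatin, none of them called, NALM6 H3K27me3 over HOXC was 0.17 by maximum, 0.27 by mean, 0.0029 with the wider filter and -0.46 to 0.20 with a library left out. REH H3K27me3 over HOXB7 to HOXB9 ran from -0.63 to 0.18 and over HOXB6 from -0.51 to 0.19 with a library left out. REH H3K4me2 at HOXA13 was 0.027 by maximum, and REH H3K4me3 at HOXA3 and HOXA6 was 0.0039 by mean. Raji H3K27me3 over HOXB3 and HOXB6 was 0.15 by maximum, 0.44 by mean, 0.16 with the wider filter and -0.63 to 0.17 with a library left out. Over HOXC it was -0.19 by maximum, -0.21 by mean, -0.34 with no centring and -0.091 to 0.13 with a library left out, and over HOXB7 to HOXB9 -0.084 by maximum, -0.076 by mean, -0.35 with no centring and -0.23 to 0.29 with a library left out. Raji H3K4me2 was -0.083 by maximum at HOXB3 and HOXB4, and 0.12 by mean and 0.0023 with no centring at the upstream HOXC4 start. Raji H3K4me3 was 0.035 with no centring and -0.47 to 0.0070 with a library left out at the upstream HOXC4 start, and 0.071 by mean and 0.10 with no centring at HOXB3 and HOXB4.

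With the replicate number as a block, 0 HOX regions were called in each treatment comparison that tested any, and no call on a HOX region changed. Counts over all regions moved from 14 to 132 for Raji H3K4me3, from 157 to 305 for REH H3K4me2, from 121 to 202 for REH H3K4me3 and from 0 to 17 for REH H3K27me3. Same-numbered libraries did not deviate together in all pairs for Raji H3K4me2, Raji H3K27me3 and REH H3K27me3, and there the numbers are not read as pairing.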
